A study of Mus musculus with 2 samples.

Results

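Wnt signalling genes were read in uterine stromal cells with and without Hand2, a transcription factor of the uterine stroma. The group held every gene whose array probe sets carry 1 annotated symbol that begins with Wnt, Fzd, Sfrp, Rspo or Dkk and a number, together with named co-receptors, R-spondin receptors, antagonists and feedback genes. These were 57 of the 18193 named genes on the array, with 114 probe sets, and they were taken by symbol, with earlier results of these data known. Wnt proteins are secreted ligands that bind Frizzled receptors at the cell surface. With the co-receptors Lrp5 and Lrp6 they stabilize beta-catenin, which acts on genes through the transcription factors Lef1 and Tcf7 and their relatives, and with Ror1 or Ror2 some of them act without beta-catenin. R-spondins bind the receptors Lgr4, Lgr5 and Lgr6 and take the ubiquitin ligases Rnf43 and Znrf3 off the cell surface, which leaves more Frizzled there. Secreted frizzled-related proteins (Sfrp) bind Wnts outside the cell, and Dickkopf proteins (Dkk) bind the co-receptors. In the mouse uterus Wnt signalling is known for its part in gland formation and in decidualization, the change of stromal cells around an implanting embryo.

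The study used mice on day 4 of pregnancy, counted from the vaginal plug as day 1, on a mixed C57BL/6 and SV129 background. The control group, labelled Hand2 Floxed, carried the floxed Hand2 allele, and the Hand2-null group came from the cross of that allele with PRcre, in which Cre recombinase is made where the progesterone receptor gene is active. That gene is active in epithelium and muscle of the uterus as well as in stroma. The labels list Prcre in the background of both groups and do not say whether the control mice carried it. Stromal cells were freed by enzymes after the epithelium was loosened and discarded, and were left to attach for 1 h before unattached cells were removed. RNA was pooled over mice of a genotype, 5 of each genotype by the design text and 4 by the extraction protocol, and each pool went onto 1 array.

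With 1 array per genotype there is no error between replicates, no p-value and no check by replication, and each difference below is between these 2 pools. The values are MAS5 signals, a linear measure of brightness on Affymetrix 3' arrays, and they do not compare the amounts of different genes. Each array's 60th percentile was used as a floor, at 64.2 for the control and 67.5 for the Hand2-null pool. A gene was measured when a probe set of it reached the floor in at least 1 array, and 10376 genes were. The brightest probe set stood for its gene, lower signals were raised to the floor, and a difference was counted from 2-fold, a log2 ratio of 1, upward. The only spread that the files give is that between different probe sets of a gene, with a pooled SD of 0.19 in log2 ratio over 3665 genes, which leaves out differences between mice. The 3' to 5' signal ratio of the Gapdh control probe sets, a sign of RNA quality, was 1.00 in the control and 1.05 in the Hand2-null pool, and that of Actb was 1.76 and 1.499. Hand2 itself went from 1545 in the control pool to 38.5, below the floor, in the Hand2-null pool by its bright probe set. Its other probe sets were under the floor in both arrays, and the labels do not say which exons the deletion takes.

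Of the 57 Wnt pathway genes 34 were measured. The R-spondin genes Rspo3 and Rspo1, the receptor gene Fzd7 and the feedback gene Nkd1 had at least 2-fold higher signals in the Hand2-null pool, and the antagonist gene Sfrp2 had a nearly 3-fold lower one. Thus 4 of 34 genes, or 11.8%, were at least 2-fold higher, where 1.99% of all measured genes were, and 1 of 34, or 2.94%, was at least 2-fold lower, where 0.742% of all measured genes were. Since the members were proposed with earlier results known, these shares describe them and support nothing further. Of the 34, Lgr6, Wnt7a and Fzd8, 3 genes, were measured only through the Hand2-null pool, so they could only count as higher. At 1.5-fold the members held 9 higher genes, or 26.5% against 6.21% of all measured genes, and 2 lower ones, or 5.88% against 3.32%. At 3-fold they held 0 higher and 0 lower genes, where 0.472% and 0.193% of all measured genes lay. The median log2 ratio was 0.14 over the 34 members and -0.03 over all measured genes. By any amount, 22 of the 34, or 64.7%, were higher, where 44.8% of all measured genes were. The counts of higher and lower genes below stand beside that share. Ratios of 12 of the 34, or 35.3%, lay within 0.19 of 0, the spread between probe sets, as did 51.9% of all measured genes.

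**Figure D1:**
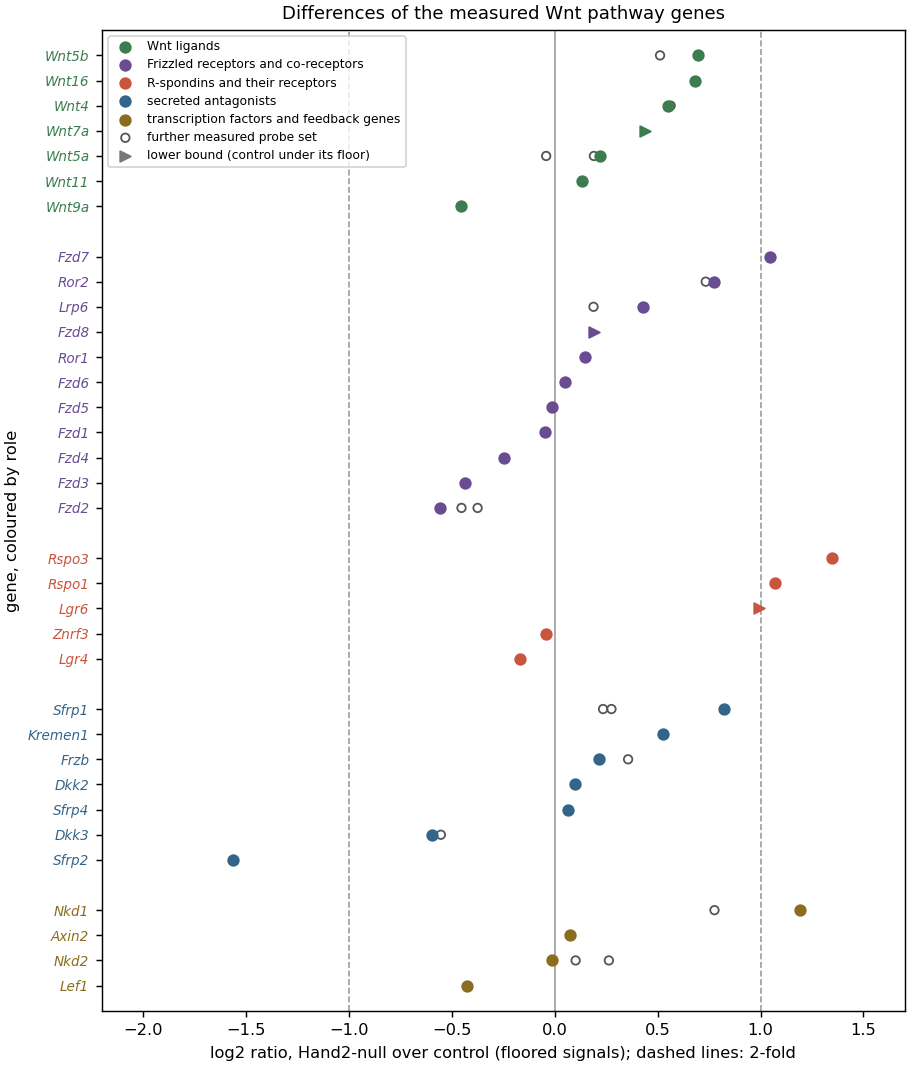
Log2 ratio of the Hand2-null over the control signal for the 34 measured Wnt pathway genes, grouped and coloured by role, with filled points for the brightest probe set, open points for further measured probe sets (bounds where the control was under its floor) and triangles for lower bounds. Rspo3, Nkd1, Rspo1 and Fzd7 lie to the right of the 2-fold line, Lgr6 lies as a bound just inside it, and Sfrp2 at -1.56 lies alone on the left.

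For 4 of the 5 genes past 2-fold, those with an entry in the RefSeq promoter table, the 250 bases before the annotated start are shown, since the comparison turns on these genes. The table held entries for 38 of the 57 members. All 4 entries are of build GRCm38.p6 on the plus strand, at chr4:124986180-124986429 for Rspo1, chr1:59481897-59482146 for Fzd7, chr8:88527383-88527632 for Nkd1 and chr3:83766071-83766320 for Sfrp2. Capitals mark matches, on either strand, to CANNTG, the E-box that basic helix-loop-helix factors such as HAND2 bind, or to CTTTGA, a core of the sites of TCF and LEF factors.
Rspo1: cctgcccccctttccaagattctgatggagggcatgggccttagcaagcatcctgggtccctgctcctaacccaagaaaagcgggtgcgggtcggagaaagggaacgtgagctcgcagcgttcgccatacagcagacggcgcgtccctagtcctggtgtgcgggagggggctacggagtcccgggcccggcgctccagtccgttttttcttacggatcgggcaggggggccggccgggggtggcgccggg
Fzd7: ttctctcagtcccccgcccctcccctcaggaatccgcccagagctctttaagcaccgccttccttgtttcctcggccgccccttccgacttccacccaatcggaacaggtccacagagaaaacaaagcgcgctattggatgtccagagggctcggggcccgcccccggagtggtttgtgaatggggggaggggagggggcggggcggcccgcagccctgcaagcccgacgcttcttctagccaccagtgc
Nkd1: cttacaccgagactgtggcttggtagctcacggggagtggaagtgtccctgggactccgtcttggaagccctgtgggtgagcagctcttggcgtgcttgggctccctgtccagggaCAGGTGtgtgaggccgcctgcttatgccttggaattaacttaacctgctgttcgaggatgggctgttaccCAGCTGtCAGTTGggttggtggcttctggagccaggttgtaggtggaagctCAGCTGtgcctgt
Sfrp2: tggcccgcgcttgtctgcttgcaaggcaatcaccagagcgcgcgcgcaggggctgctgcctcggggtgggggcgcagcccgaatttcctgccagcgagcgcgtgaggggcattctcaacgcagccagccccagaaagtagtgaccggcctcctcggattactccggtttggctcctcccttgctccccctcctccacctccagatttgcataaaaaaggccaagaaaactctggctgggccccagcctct
Only Nkd1 among these 4 windows held an E-box, with 4 matches that began 134, 64, 57 and 13 bases before the start. Of these, 2 read CAGCTG. The window of Sfrp2 and those of Rspo1 and Fzd7 held 0 matches to either motif. Of all 32851 windows of this length in the table, 66.2% held CANNTG and 13.8% held CTTTGA. The E-box form CATCTG, which overlaps CANNTG, was in 0 of the 4 windows and in 14.4% of all. A match is a description of letters, and letters absent from a window of 250 bases say nothing about binding elsewhere.

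Of 9 genes of R-spondins and their receptors 5 were measured, namely Rspo1, Rspo3, Lgr4, Lgr6 and Znrf3, and Lgr6 only through the Hand2-null pool. Rspo3, a secreted amplifier of Wnt signals, had a signal of 222 in the control and 565 in the Hand2-null pool. Both values were well above the floor, and the signal was 2.54-fold higher, the 93rd highest ratio of the 10376 measured genes. Rspo1, its relative, had 170.4 in the control and 358 in the Hand2-null pool, 2.10-fold higher, on the single probe set that the array has for it. The second probe set of Rspo3 did not reach the floor in either array, at 16.2 and 27.6. Rspo2 and Rspo4, the other members of this ligand family, stayed under the floor in both arrays, with no signal over 16.3. Both measured R-spondin genes were therefore higher, and the family's measured values rest on 1 probe set each.

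Among the receptors of R-spondins, Lgr6 had a signal of 20.5 in the control pool, under the floor, and 128 in the Hand2-null pool. Against the floor this is at least 1.99-fold higher, a log2 ratio of at least 0.99, just short of the 2-fold line, while Fzd7 at 1.05 was the member just past it. The second probe set of Lgr6 had 20.2 and 48.9 and was under the floor in both arrays. Lgr4, the receptor of the same family that was above the floor in both, had 340.3 and 302, a log2 ratio of -0.17, within the spread between probe sets. Lgr5, known as a marker of stem cells in several epithelia, was under the floor at 19.5 and 27.1. The ubiquitin ligase Znrf3 had 183 and 178, and its relative Rnf43 was under the floor at 40.6 and 45.6. Ligands and Lgr6 were thus higher in the Hand2-null pool while Lgr4 and Znrf3 differed by less than the spread between probe sets.

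Secreted antagonists went in both directions. Sfrp2 had a signal of 1128 in the control pool and 382 in the Hand2-null pool. It was 2.95-fold lower, a log2 ratio of -1.56 and the 22nd lowest of all measured genes, and it was read by a single probe set. Sfrp4, of the same family, had 966 and 1009, a log2 ratio of 0.06. Sfrp1 had 84.3 and 149 by its brightest probe set, a log2 ratio of 0.82, but 0.28 and at least 0.23 by its other measured probe sets, so its size depends on the probe set. Frzb, which is a further frizzled-related protein, had 349 and 405, a ratio of 0.21, and Sfrp5 was under the floor in both arrays. Sfrp2 was the only frizzled-related gene with a lower signal in the Hand2-null pool among the 4 measured, the others having ratios from 0.06 to 0.82.

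Of 4 Dickkopf genes 2 were measured. Dkk3, a divergent member of the family, had 362 in the control and 239 in the Hand2-null pool, or -0.60 on the log2 scale, and its further probe set gave -0.55. Dkk2 had 160.3 and 172, a ratio of 0.10 and within the spread between probe sets. Dkk1 and Dkk4 were under the floor in both arrays, as was the Wnt-binding inhibitor Wif1. Kremen1, a receptor of Dickkopf proteins, had 92.7 and 134, a log2 ratio of 0.53. The antagonist group counts the receptor Kremen1 with the secreted proteins. Over its 7 measured genes 5 were higher, Kremen1 among them, and 2, Sfrp2 and Dkk3, were lower, with a median log2 ratio of 0.10.

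**Figure D2:**
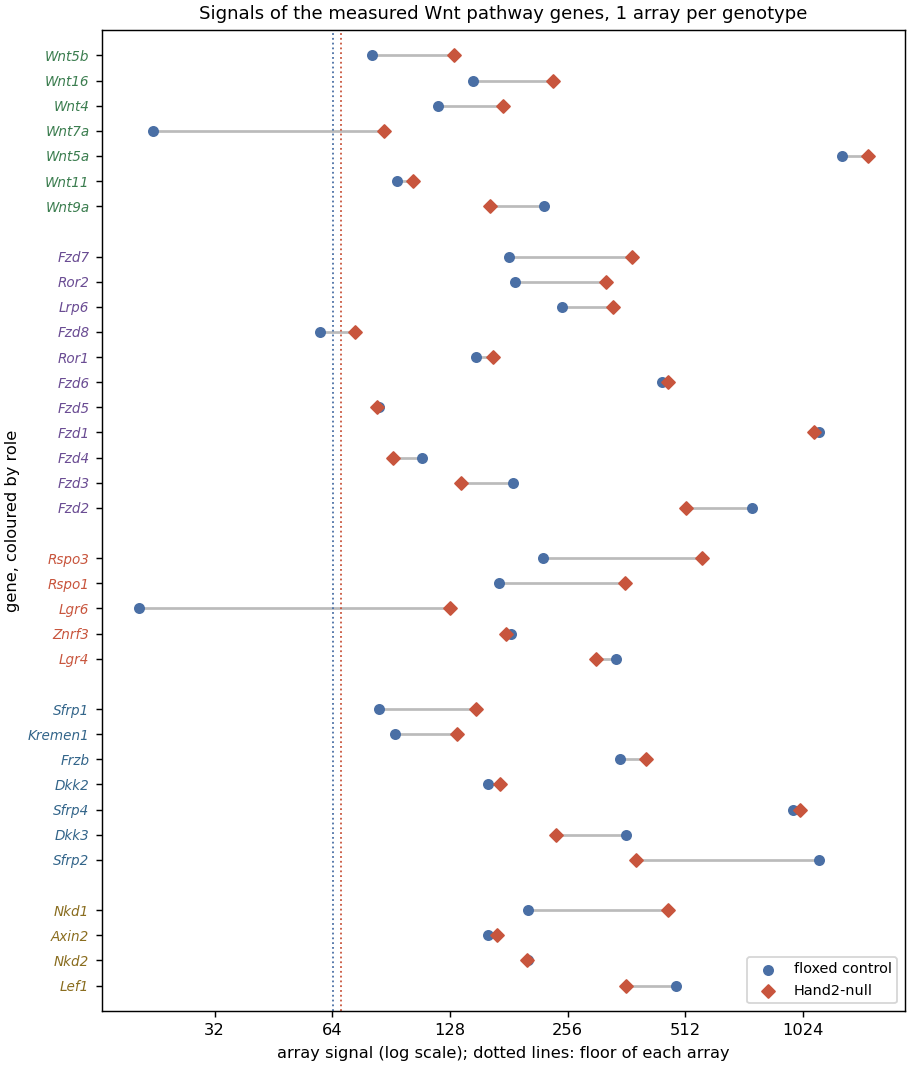
Signals of the 34 measured genes in the control pool (circles) and the Hand2-null pool (diamonds) on a log axis, with a dotted line at the floor of each array, 64.2 and 67.5. Lgr6, Wnt7a and Fzd8 are under the floor in the control pool, and Sfrp2 goes from 1128 to 382 while Rspo3 goes from 222 to 565.

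Wnt ligand genes were 7 measured of 19 on the array. Of these 7, 6 were higher in the Hand2-null pool and 1 was lower, where 44.8% of all measured genes were higher. Wnt7a, among the 6, was measured only through the Hand2-null pool and has a bound in place of a ratio, and the other ratios ran from -0.46 to 0.70. Wnt5b had 80.9 in the control and 131 in the Hand2-null pool, 0.70 higher on the log2 scale, while a second probe set gave no less than 0.51. Wnt16 had 146 and 235, a ratio of 0.68, on a single probe set. Wnt4, a ligand that the mouse uterus needs for decidualization, had 119 and 175, a ratio of 0.55, and its second probe set, under the floor in the control pool, gave at least 0.56. These 3 genes differed by more than the spread between probe sets and by less than 2-fold.

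Wnt7a, the ligand known from uterine epithelium, was under the floor at 22.3 in the control pool and had 87.0 in the Hand2-null pool, at least 1.35-fold higher. Its other probe sets were under the floor in both arrays. Wnt5a, a ligand that acts mainly without beta-catenin, had 1291 and 1503, a ratio of 0.22, with further probe sets at 0.19 and -0.04. Wnt11 had 93.8 and 103, a ratio of 0.13. Wnt9a was the lower ligand, with 222 in the control and 162 in the Hand2-null pool and a ratio of -0.46. Wnt5a and Wnt11 thus lay close to the spread between probe sets or within it. The other 12 ligands, Wnt1, Wnt2, Wnt2b, Wnt3, Wnt3a, Wnt6, Wnt7b, Wnt8a, Wnt8b, Wnt9b, Wnt10a and Wnt10b, were represented by probe sets under the floor in both arrays. The brightest of their signals was 59.4, of Wnt6 in the Hand2-null pool.

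Frizzled receptors and co-receptors were 11 measured of 14, and their median log2 ratio was 0.05, with 6 genes higher and 5 lower. Fzd7 had 182 in the control and 375 in the Hand2-null pool, 2.06-fold higher, and its other probe set was under the floor in both. Fzd2, a receptor of the same subfamily, had 760.0 and 516, or -0.56 on the log2 scale, and its further probe sets gave -0.38 and -0.45, all on the same side. Fzd1, the third receptor of this subfamily, had 1127 and 1091, a ratio of -0.05. Closely related receptors thus differed from each other: Fzd7 was higher, Fzd2 lower and Fzd1 within the spread between probe sets.

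The remaining Frizzled genes differed less. Fzd3 had 185 and 137, a ratio of -0.44, and Fzd4 had 109 and 91.6, a ratio of -0.25. Fzd5 had 84.3 and 83.4, and Fzd6 had 445 and 461, both within the spread. Fzd8 had 59.6, under the floor, and 73.3, at least 1.14-fold higher. Fzd9 and Fzd10 were under the floor in both arrays, with no signal over 37.6. Ror2, a receptor of Wnt5a, had 188 in the control and 321 in the Hand2-null pool, 0.78 higher on the log2 scale, and a second probe set gave 0.73, so both showed about the same difference. Its relative Ror1 had 149 and 165, a ratio of 0.15. Lrp6, a co-receptor of the beta-catenin branch, had 248 and 334, a ratio of 0.43, with a second probe set at 0.19, and Lrp5 was under the floor at 6.07 and 9.62.

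Feedback genes and transcription factors of the pathway differed in direction. Nkd1, an inhibitor of Dishevelled that beta-catenin induces, had 202 in the control and 462 in the Hand2-null pool, 2.28-fold higher and the 135th highest ratio of all measured genes. Its second measured probe set, just under the floor in the control pool, gave at least 0.78 on the log2 scale, on the same side, and the other probe sets were under the floor in both arrays. Axin2, a feedback gene that is widely used as a readout of beta-catenin, had 161 and 169, a ratio of 0.07. Nkd2, the relative of Nkd1, had 203 and 201, a ratio of -0.02, with further probe sets at 0.10 and 0.26. Lef1, a transcription factor that works with beta-catenin, had 484 in the control and 361 in the Hand2-null pool, a ratio of -0.42. Of these genes Nkd1 was higher and Lef1 lower by more than the spread between probe sets, and Axin2 and Nkd2 lay within it by their brightest probe sets.

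**Figure D3:**
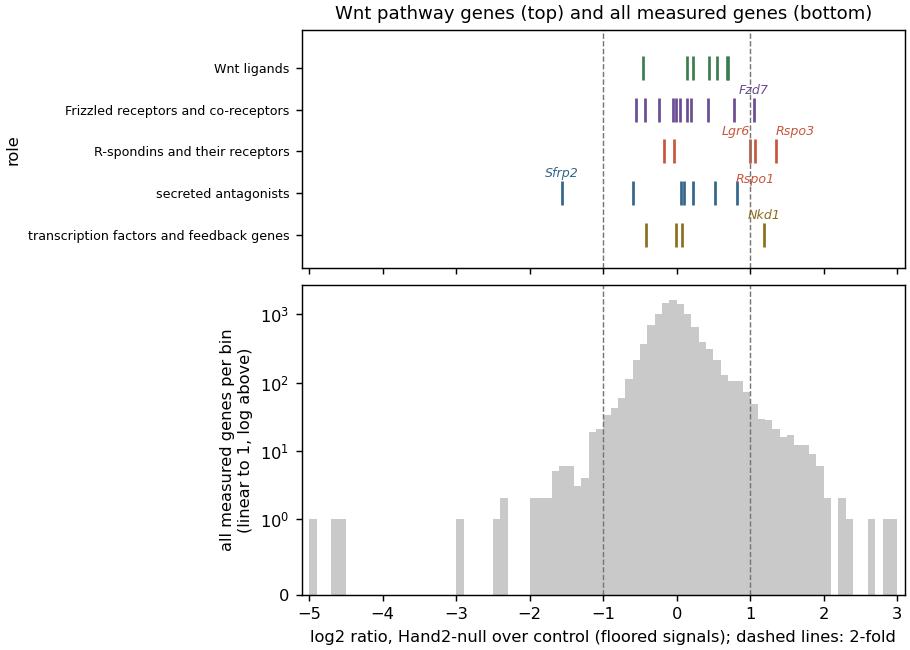
Log2 ratios of the 34 measured Wnt pathway genes, a tick each in a row for each role (top), over the distribution of all 10376 measured genes in bins of log2 ratio (bottom, with a log axis above 1). The named ticks near or past the dashed 2-fold lines are Fzd7, Lgr6, Rspo1, Rspo3, Nkd1 and Sfrp2, in the tails of the distribution, whose median is -0.03.

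The 5 members past 2-fold were set beside genes of like signal. Among the 2594 measured genes with the lowest mean signal, up to 136, 0 of 9 members were past 2-fold, while 2.43% of genes were higher and 0.771% lower. That count depends on the floor, which caps the ratios of the dim Lgr6 and Wnt7a: with it at the 50th percentile they were higher by at least 1.87 and 1.32 on the log2 scale. Rspo1 lay among the next 2594. Fzd7, Nkd1 and Rspo3 lay among genes with mean signals of 259 to 539, of which 1.89% were at least 2-fold higher, and Sfrp2 lay among the brighter ones, of which 0.540% were at least 2-fold lower. Among 11 members with several measured probe sets, 2 had probe sets of opposite sign, Wnt5a and Nkd2, all with log2 ratios of 0.26 or less in size. Over the 7 member genes that had several probe sets clear of both floors, the pooled SD between probe sets was 0.17.

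Other genes of the pathway were read in 4 lists. Of 14 genes of Wnt secretion and other regulators outside the cell, 7 were measured. Of these 3 were higher and 4 lower, none by 2-fold, and the median on the log2 scale was -0.07. The lowest were Gpc3, a glypican of the cell surface, with 361 in the control and 198 in the Hand2-null pool, a ratio of -0.86, and Apcdd1, a membrane inhibitor of Wnt signals, with 2580 and 1768, a ratio of -0.55. All 5 measured probe sets of Apcdd1 were lower, from -0.21 to -0.65. Of 29 genes of the beta-catenin pathway inside the cell, 25 were measured, 11 higher and 14 lower, with a median of -0.06 and none at 2-fold. Tcf7l1, a mostly repressive TCF factor, had 214 and 381, a ratio of 0.83, but -0.05 by its other probe set. Ctnnbip1, which binds beta-catenin and blocks its use, had 129 and 81.8, a ratio of -0.66, but 0.28 by its other probe set. The values of both therefore depend on the probe set. So does the direction of Gsk3b, counted lower at -0.27 but at 0.30 to 0.63 by its other measured probe sets. Chd8, counted lower at -0.06, had 0.63 by its other probe set.

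Of 17 genes of the pathway without beta-catenin, such as those of planar cell polarity, 16 were measured, 8 higher and 8 lower, with a median of -0.04. The largest differences were those of Prickle1, at 712 and 560.2 with a ratio of -0.35, and Vangl1, at 150.2 and 185 with 0.30. Of 20 genes known to respond to beta-catenin in some tissue, 9 were measured, 6 higher and 3 lower, with a median of 0.37 and none at 2-fold. Twist1, a basic helix-loop-helix factor of mesenchyme, had 67.0, near the floor, and 126, a ratio of 0.91. Sox9, a factor of glands and cartilage, had 127 and 67.5, the second at the floor, a ratio of -0.91. The 4 lists of other pathway genes held 0 genes past 2-fold. Of all measured genes 1.99% were at least 2-fold higher and 0.742% lower. At such shares lists of 7 to 25 measured genes would hold few or none, so this count makes no contrast with the members.

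Markers of other cells of the uterine wall also differed between the arrays. By the brightest probe set of each gene, all 13 smooth muscle markers were higher, by at least 2-fold in 10 of them. Synpo2, at 0.82 by that probe set, had -0.25 and -0.47 by its other measured probe sets. The median log2 ratio of the 13 markers was at least 1.36, since 3 are bounds. Their summed signal was 20170.0 in the control and 45251 in the Hand2-null pool. Such sums, here and below, are weighted to the brightest genes and do not measure amounts of cells. The 10 were Tagln, Mylk, Myocd, Des, Smtn, Actg2, Lmod1, Myh11, Oxtr and Cnn1, with Tagln at 1.06 and Cnn1 at 2.02, and with bounds of at least 1.27 for Myocd and 1.93 for Oxtr, which were under the floor in the control pool. Of these 13 markers 3 were under the floor in the control pool and 0 in the Hand2-null pool, so those 3 could only count as higher. Of 6 mesothelial markers 5 were measured, 4 higher, with summed signals of 865 and 1139, a median of at least 0.78 and Upk3b at 1.42. Of these, 3, Msln, Upk1b and Lrrn4, were measured only through the Hand2-null pool and could only count as higher. Wt1, the brightest, was lower, with 633 in the control and 541 in the Hand2-null pool, a ratio of -0.23. Genes that cell handling can induce, immediate-early and heat-shock, had 11 of 12 higher, with sums of 34714 and 44273 and a median of 0.47, led by Fosb at 0.98 and Atf3 at 0.88. Their list shares Jun with that of genes that respond to beta-catenin. The part of these cells, or of handling, in the values of Rspo3, Rspo1, Fzd7, Nkd1 and Lgr6 was not tested.

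Epithelial markers were higher in 11 of 14, with sums of 9357 and 11370 and a median of 0.25, and none was under the floor in either array. Lcn2 and Ltf, at 2.22 and 1.49, went from 162 to 758 and from 559 to 1566, most of the rise in the sum. Krt19 at 0.96, Elf3 at 0.69, Cldn4 at 0.46, Krt7 at 0.40, Cldn7 at 0.30 and Cdh1 at 0.20 were higher as well. Foxa2 at -0.79, Cldn3 at -0.37 and Krt18 at -0.26 were lower. Epcam at 0.16, Krt8 at 0.04 and Muc1 at 0.14 lay within the spread between probe sets by their brightest probe sets. The other measured probe set of Epcam gave 0.88, so its value depends on the probe set. The part of epithelial cells in the value of Wnt7a was not tested. Of 11 endothelial markers 5 were higher and 6 lower, with sums of 3817 and 4700.4 and a median of -0.01. Cldn5 and Lyve1 were at 1.55 and 1.54 and Flt4 at 0.70. Prox1, under the floor in the control pool, was at 0.97 or more. Among the 6 lower genes Cdh5 was at -1.11, Emcn at -0.43 and Tek at -0.33. The higher sum rests on Lyve1, which had 502 in the control and 1460 in the Hand2-null pool. Of 12 leukocyte markers 10 were measured, 6 higher and 4 lower, with sums of 7665 and 8023 and a median of 0.14, with the mast cell proteases Cpa3 and Cma1 at 1.65 and 1.37. All 12 genes of the uterine stroma list were above the floor in both arrays, 5 higher and 7 lower. Not all are confined to stroma, since the progesterone receptor gene Pgr is active in epithelium and muscle too. Their sums were 56331 and 61099 and their median was -0.12, led in size by Col1a1 at 0.98 and Hoxa11 at -0.68. By their brightest probe sets the 7 lower ones were Pgr, Esr1, Hoxa10, Hoxa11, Nr2f2, Pdgfra and Vim. The 5 higher ones were the matrix genes Col1a1, Col1a2, Col3a1, Dcn and Lum. Of these, Esr1 at -0.03, Col1a2 at 0.15 and Col3a1 at 0.12 lay within the spread between probe sets. The other measured probe set of Esr1 gave 0.42, while those of Col1a2 gave 0.72 and 1.29 and that of Col3a1 0.56. The part of stromal cells in the lower value of Sfrp2 was not tested. In such bulk RNA fewer cells of a type and less RNA per cell cannot be told apart.

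**Figure D4:**
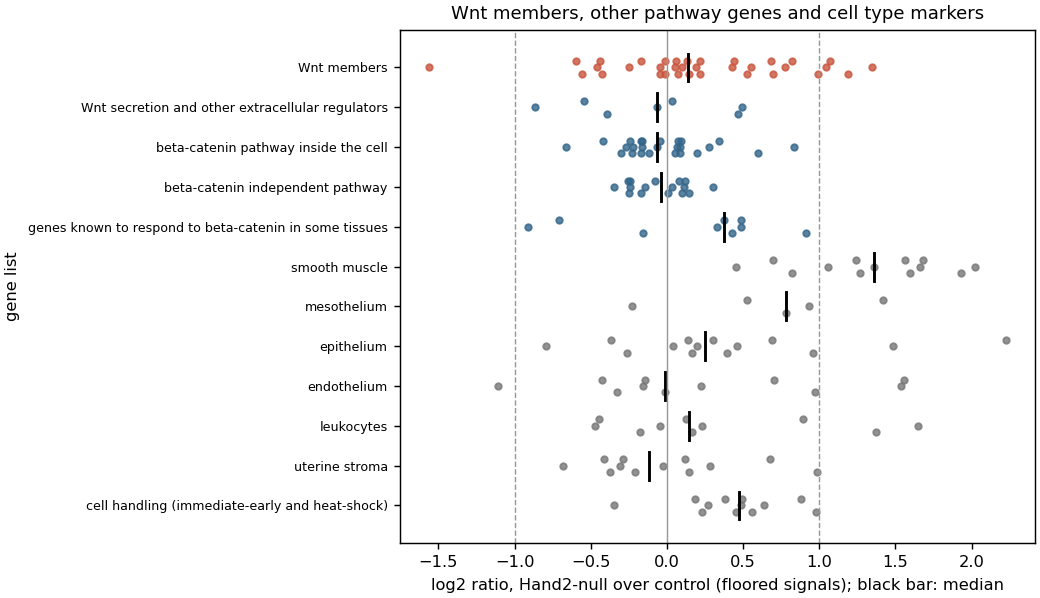
Log2 ratio of each measured gene (points) and the median (black bars) for the Wnt members, 4 lists of other pathway genes and 7 lists of cell type or handling markers, with dashed lines at 2-fold. Genes under the floor in the control pool are drawn at their bound, and the medians drawn are 0.14 for the members, 1.36 for smooth muscle markers, 0.78 for mesothelial markers and -0.12 for stromal markers.

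Rspo3 and Sfrp2 were past 2-fold under each of 9 other settings of scaling, floor and probe sets, with log2 ratios of 1.14 to 1.39 and -1.61 to -1.41. Fzd7 had a ratio of 0.99 with the arrays centred on their medians, and Nkd1 of 0.98 as the mean over its probe sets. With a pseudo-signal in place of the floor, Nkd1, Rspo1 and Fzd7 had ratios of 0.99, 0.86 and 0.85 and Lgr6 had 1.21, so that 2 members were at least 2-fold higher, as were 1.13% of all measured genes.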

How the data were processed

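Total RNA of uterine stromal cells, 100 ng per pool, was hybridized to 1 Affymetrix mouse array per genotype, per the labels' protocols. The deposited values are linear intensity (MAS5 signal), which the authors made by the MAS5 method (Affymetrix Expression Console, version 1) according to the submitters' processing notes. Trimmed of 2% at each end, the mean was 150.001 in both arrays, so each was scaled to a common mean, and detection calls were not used here. MAS5 subtracts mismatch signals, so dim probe sets have unsteady ratios. No genome build was used for the array.

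Of 45101 probe sets 64 were controls, 34945 had 1 gene in the platform annotation, 932 several and 9160 none listed. All 57 member symbols matched the RefSeq symbol of their Entrez ID. 1 gene of the rule, Tcf7, had no probe set of its own in the annotation used. Floors at the 60th percentile, the brightest probe set per gene by mean log2 signal and a 2-fold threshold were used, with no statistical test. All members were to be named, and of each other list the genes past 2-fold or else the 2 with the largest ratio in size. Members and lists were chosen with earlier results of these data known. Alternatives were median centring, quantile normalization, loess (span 0.3), floors placed at the 50th or 75th percentile or left off, adding the floor to each signal (a pseudo-signal), averaging a gene's probe sets, dropping _x_at and _s_at probe sets, and 1.5-fold and 3-fold thresholds. The counting code was run on simulated data whose noise was the same at every signal level, unlike that of dim probe sets. That run says nothing about how sure the 2-fold differences are. Python 3.11.15, numpy 2.4.6, pandas 2.3.3, statsmodels 0.14.6 and matplotlib 3.10.9 were used.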

Additional observations from a re-analysis of the deposited data

How the results depend on the processing

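Of 34 measured member genes, the number at least 2-fold higher was 4 and the number at least 2-fold lower 1. With no floor all 57 members counted as measured, and 8 were higher and 6 lower, while 9.05% and 8.94% of all genes were. With a pseudo-signal 2 were higher, against 1.13% of all genes, and with a floor at the 50th percentile 6 were, Wnt7a and Lgr6 among them, against 2.52%. A 1.5-fold threshold gave 9 higher and 2 lower, and a 3-fold one 0 and 0. Median centring and the mean over probe sets gave 3 higher each, against 1.72% and 1.88% of all genes. The median log2 ratio of the members ran from 0.06, where a floor at the 75th percentile left 24 members measured, to 0.15 with no floor. The scalings moved the median of all measured genes by -0.05 to 0.03. Of 296 single gene values under 9 alternatives, 16 moved by more than 0.19, and 0 of the genes past 2-fold changed sign. Lgr6 reached 2.65 and Wnt7a 1.96 with no floor, Wnt4 had 0.10 under a 75th percentile floor and Sfrp1 0.44 as the mean over probe sets. No paired analysis was possible because each genotype had 1 array. Precision is limited by having 2 arrays, and 23 members were too dim to compare.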
